A study of Gallus gallus with 6 samples.

Results

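The mitochondrial ribosomal proteins build the ribosome that works inside mitochondria, and their genes were followed in chicken B cells with and without the transcription factor Bach2. A gene was taken as a member when its symbol began with MRPL or MRPS followed by a digit and it had at least 20 counts summed over the 6 libraries. Of 17108 genes in the deposited table, 59 carried such a symbol and 56 were members, 32 with the L of the large subunit and 24 with the S of the small subunit. The other 3 entries were MRPS12 and second entries for MRPL28 and MRPS16, each listed with 0 counts in every library, while the member with the fewest counts, MRPS36, had 1070. MRPL12 was not analysed here. RNA was sequenced from DT40, a B cell line of the chicken. Clone 18, the wild type, was set against cells of the genotype Bach2-/-, with 3 independent cultures of each and no treatment, all grown in RPMI with chicken and fetal calf serum. How many clones stand behind the Bach2-/- cultures is not stated in the labels, and an effect of the genotype cannot be told apart from a trait of 1 clone.

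The mitochondrial ribosome, or mitoribosome, is assembled from ribosomal RNA encoded in the mitochondrial genome and from proteins that are encoded in the nucleus, made in the cytosol and imported. It translates the few messenger RNAs of the mitochondrial genome, most of which encode subunits of the respiratory chain. Its small subunit binds the messenger RNA and decodes it, and its large subunit forms the peptide bonds. Some of its proteins are homologues of bacterial ribosomal proteins, and the others were added in mitochondria. The roles given below are known from bacteria and mammals. In structures of the mammalian mitoribosome, MRPS18A and MRPS30 sit in the large subunit despite their letter, and MRPS36 has been assigned to another mitochondrial enzyme complex.

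The libraries held between 8999010 and 20647281 counts, and each member had between 90 and 5662 counts in a library, so that no member was at 0 in any library. BACH2 fell from 6.60, 6.35 and 6.10 CPM (counts scaled to a common, TMM-adjusted library total) in the wild type to 2.60, 3.37 and 2.57 CPM in the knockout. On the log2 scale it changed by -1.16 ± 0.20 (SE; edgeR adjusted p = 0.00144). Of 9159 genes tested for genotype, 1163 were higher and 1647 lower in the knockout. The second principal component, with 13.5% of the variance, set knockout replicate 1 apart from the other knockout libraries. All 8 B cell markers looked for, with BACH2 itself on the list, were present. Their summed level was 1731 to 1861 CPM in the wild type and 1499 to 1547 CPM in the knockout. Of the 8, 6 were called lower, a count that includes BACH2, the gene knocked out. Of the T cell markers CD4 and CD28 were at 0, and the list summed to 140.1 to 177 CPM in the wild type and 85.4 to 108 CPM in the knockout, most of it CD3D. All 3 tested T cell markers were called lower: CD3E went from 17.3 ± 4.04 to 0.820 ± 0.379 CPM, CD8A from 5.06 ± 1.18 to 0.245 ± 0.105 CPM and CD3D from 135 ± 14.0 to 96.0 ± 10.8 CPM (SD, n = 3 each). Macrophage and granulocyte markers summed to at most 1.45 CPM, and the erythroid and thrombocyte markers with an entry were at 0. The part of these marker differences in the values below was not tested.

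The genes of the mitoribosome were expressed well above most genes in both genotypes. Levels per gene length are given in RPKM, the deposited unit that scales counts by gene length and library size. The median member had 71.1 RPKM in the wild type and 69.4 RPKM in the knockout, against 14.3 and 14.6 RPKM for all tested genes, and 53 of 56 members lay above the median of all tested genes in each genotype. Member means ran from 9.32 to 230 RPKM in the wild type, a range of 24.6-fold, and from 11.1 to 257 RPKM in the knockout. The order of the members was nearly the same in both genotypes (Spearman's rho 0.963 across the 56 genes, which share their libraries and are not independent replicates).

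In the large subunit the highest levels per length over all 6 libraries were those of MRPL44, MRPL20 and MRPL35. MRPL44 and MRPL20 led in each genotype, while the third place was held by MRPL18 (166 RPKM) in the wild type and by MRPL3 (151 RPKM) in the knockout. MRPL44, a protein added in mitochondria that resembles a bacterial ribonuclease, had 208, 227 and 215 RPKM in wild type replicates 1, 2 and 3 and 224, 266 and 257 RPKM in knockout replicates 1, 2 and 3. MRPL20, whose bacterial homologue binds ribosomal RNA early in assembly, had 181, 178 and 171 RPKM in wild type replicates 1, 2 and 3 and 201, 176 and 189.5 RPKM in knockout replicates 1, 2 and 3. MRPL35 had 153, 155 and 165 RPKM in wild type replicates 1, 2 and 3 and 149.9, 153 and 117 RPKM in knockout replicates 1, 2 and 3, where knockout replicate 3 stood below the other 5 libraries. MRPL53 and MRPL50 were lowest, with means of 13.8 ± 0.660 and 20.4 ± 1.56 RPKM in the wild type and 14.3 ± 1.73 and 23.1 ± 0.769 RPKM in the knockout (SD, n = 3 each).

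In the small subunit MRPS31, MRPS22 and MRPS21 were the highest in each genotype. MRPS31, a protein with no bacterial homologue, had 223, 238 and 227 RPKM in wild type replicates 1, 2 and 3 and 271, 259 and 240.3 RPKM in knockout replicates 1, 2 and 3. MRPS22, likewise added in mitochondria, had 174, 173 and 179.6 RPKM in wild type replicates 1, 2 and 3 and 183, 188 and 175 RPKM in knockout replicates 1, 2 and 3. The genotypes did not overlap for MRPS31 in RPKM, though they did in CPM, and they overlapped for MRPS22. MRPS21, whose bacterial homologue is a small protein near the site where messenger RNA binds, had 182, 182 and 170.2 RPKM in wild type replicates 1, 2 and 3 and 89.6, 140.1 and 163 RPKM in knockout replicates 1, 2 and 3. All 3 knockout libraries were below the wild type for MRPS21, and knockout replicate 1 was by far the lowest. MRPS35 (9.32 ± 0.300 RPKM) and MRPS27 (11.8 ± 0.854 RPKM) were lowest in the wild type (SD, n = 3 each). In the knockout they had 11.1 ± 1.07 and 13.3 ± 0.560 RPKM (SD, n = 3 each). The gene lengths that the RPKM values imply were 4.88 kb for MRPS35, 5.59 kb for MRPS27 and 4.42 kb for MRPL53, against a median of 1.04 kb over members. These gene models are among the longest of the members, and MRPS27 had 66.8 ± 4.85 CPM in the wild type (SD, n = 3).

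**Figure D1:**
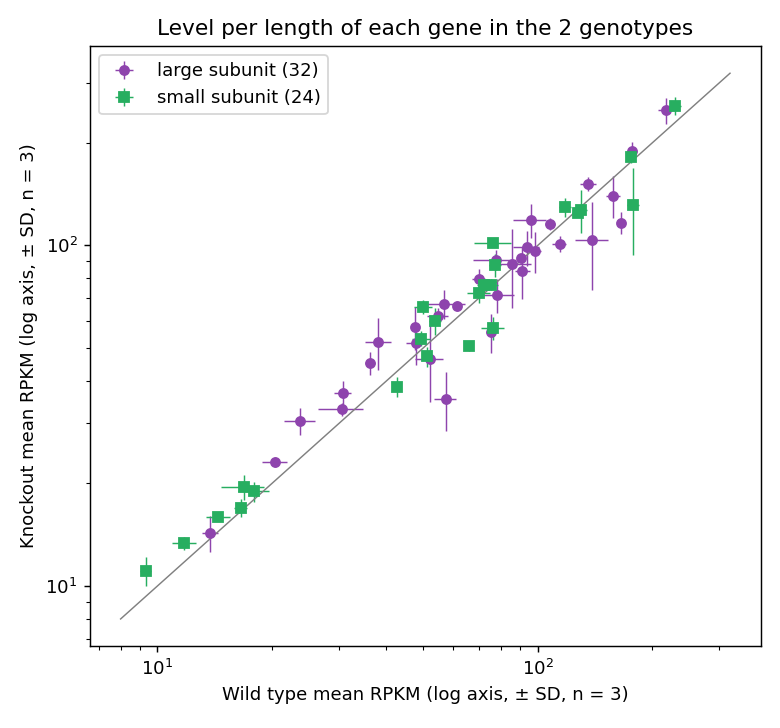
Mean RPKM of each of the 56 genes in the wild type (x axis, log scale) and in the knockout (y axis, log scale), with bars for the SD of 3 libraries; circles are large subunit genes, squares small subunit genes, and the line marks equal levels. Genes spread from 9.32 to 230 RPKM in the wild type and stay close to the line of equality.

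The first comparison asks whether the loss of Bach2 goes with a change in these genes. Most did not pass the test: of 56 members, 5 rose (MRPL1, MRPL22, MRPL32, MRPS17 and MRPS23), 6 fell (MRPL2, MRPL14, MRPL18, MRPL55, MRPS10 and MRPS18A) and 45 did not pass (edgeR, adjusted p under 0.05 over all tested genes). Of all tested genes, 12.7% were called higher and 18.0% lower, so that 19.6% of members were called against 30.7% of all genes. The median log2 fold change, always of knockout over wild type, was 0.067 for members and -0.0014 for all tested genes, and members ran from -0.72 to 0.42. No member changed 2-fold, where 6.53% of all tested genes were called and changed at least 2-fold. The middle 50% of members lay between -0.086 and 0.15 on the log2 scale, and the middle 50% of all genes between -0.27 and 0.19. Genes at the level of the members also changed less than all genes. Of the 5036 genes within the RPKM range of the members, 69 were called and changed at least 2-fold. The middle 50% of these 5036 genes lay between -0.17 and 0.18. The libraries of the genotypes did not overlap for 21 members, 11 with the knockout above and 10 with it below, or 37.5% against 46.2% of all tested genes.

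Summed over the 56 members, the level was hardly different between genotypes. The sum was 4731, 4989.6 and 4775 CPM in wild type replicates 1, 2 and 3 and 4818, 4938 and 4835 CPM in knockout replicates 1, 2 and 3. The genotypes overlapped, with means of 4832 ± 138 and 4863 ± 65.05 CPM (SD, n = 3 each). These genes took 0.469% to 0.502% of a library's counts. In bulk RNA, fewer cells that express a gene and less RNA per cell cannot be told apart.

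The counts of called members depended on single libraries. Without knockout replicate 1, 11 members were higher and 11 lower, while 15.8% and 20.7% of all genes tested without it were higher and lower. Without wild type replicate 1, 2 were higher and 5 lower, and over all genes the calls also dropped, to 639 higher and 1177 lower. Leaving out wild type replicate 3 gave 3 higher and 5 lower members, with 645 genes higher and 1267 lower over all. In the fits without wild type replicate 2, knockout replicate 2 or knockout replicate 3, between 4 and 7 were higher and between 5 and 7 lower. Over all genes these fits called, in that order, 643, 747 and 1331 higher and 1238, 1272 and 1731 lower.

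**Figure D2:**
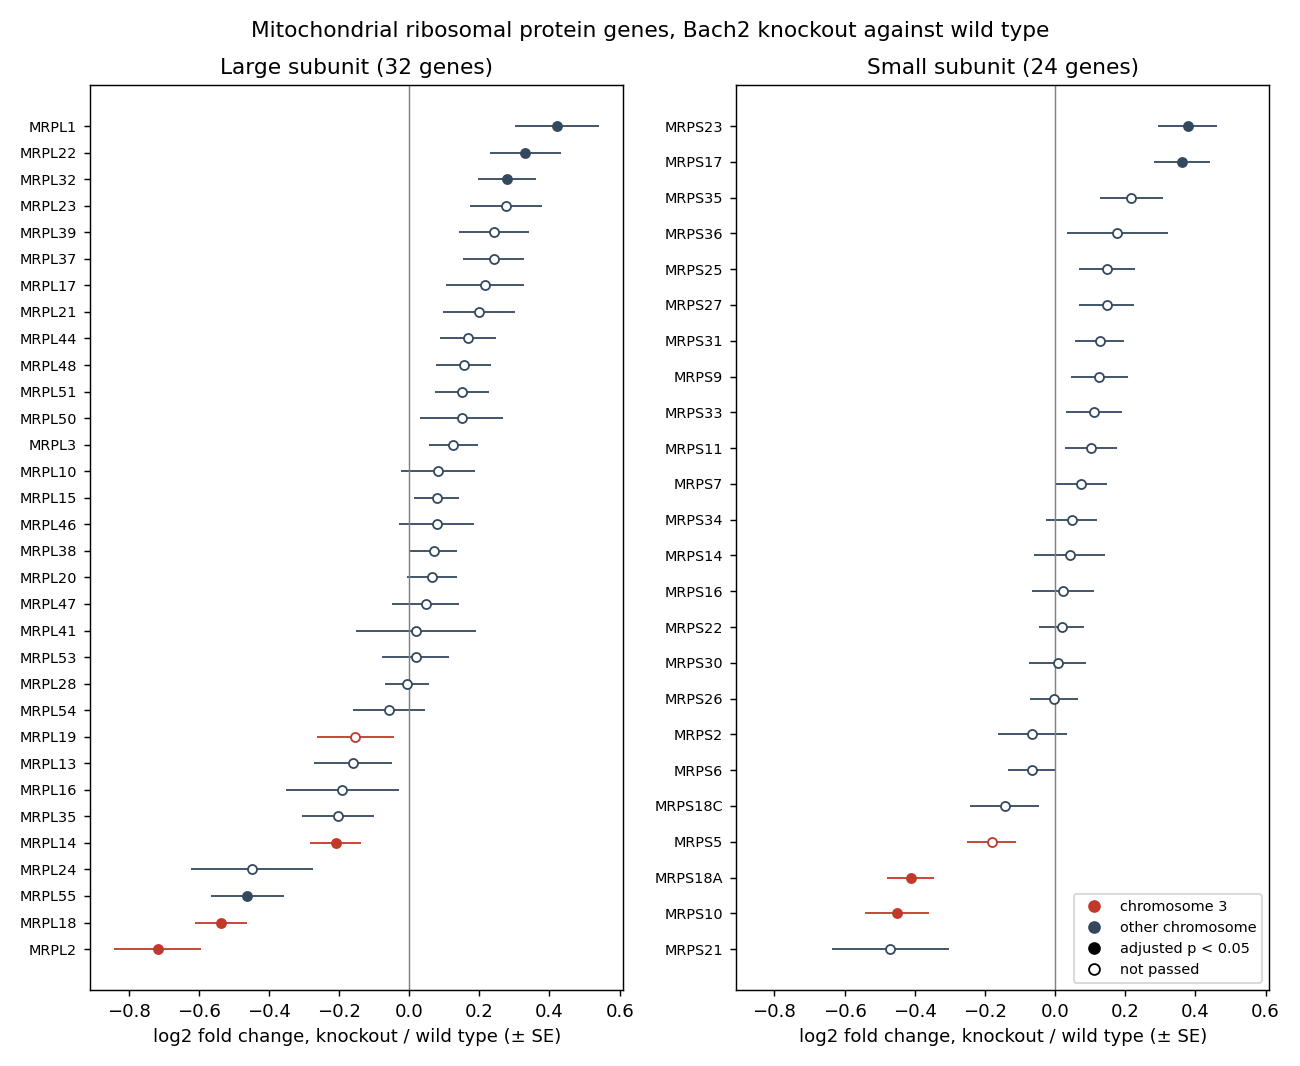
Log2 fold change of knockout over wild type with its standard error for the 32 large and 24 small subunit genes, ordered by value; filled points passed an adjusted p under 0.05 and red points are genes of chromosome 3. Of the 6 filled points below 0, 5 are genes of chromosome 3, and the 5 filled points above 0 are genes of other chromosomes.

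The second comparison set the large subunit beside the small one. Of 32 large subunit members, 3 rose, 4 fell and 25 did not pass, with a median of 0.074. Of 24 small subunit members, 2 rose, 2 fell and 20 did not pass, with a median of 0.044. Of all tested genes, 12.7% were called higher and 18.0% lower. Of the members that fell, 3 of the large and 2 of the small subunit lie on chromosome 3. Without the members of that chromosome the medians were close, at 0.080 for 28 large and 0.074 for 21 small subunit members. Members are not replicates of a genotype, and no test of the difference between these medians was made. The medians against the wild type mean were 0.055, 0.092 and 0.073 for the large subunit in knockout replicates 1, 2 and 3, and -0.0070, 0.074 and 0.036 for the small subunit. The ratio of the summed CPM of large to small subunit members was 1.29, 1.33 and 1.32 in wild type replicates 1, 2 and 3 and 1.28, 1.32 and 1.32 in knockout replicates 1, 2 and 3, so the genotypes overlapped. Large subunit members summed to 2742 ± 95.3 CPM in wild type and 2753 ± 50.9 CPM in knockout libraries, and small subunit members to 2090.4 ± 44.6 and 2110.0 ± 24.5 CPM (SD, n = 3 each). With MRPS18A and MRPS30 counted in the large subunit and MRPS36 left out, 3 of 34 large subunit members rose and 5 fell, and 2 of 21 small subunit members rose and 1 fell. With edgeR, 0 large subunit members were called higher without wild type replicate 1, where 3 were higher at an unadjusted p under 0.05, and DESeq2 with all libraries called 4. The number was 1 with wild type replicate 3 left out and 9 with knockout replicate 1 left out. Without knockout replicate 1, 7 large and 4 small subunit members were lower.

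For the median member, replicate libraries of a genotype differed little. Some members spread more in the knockout, such as MRPL24 with 74.4 ± 21.4 CPM (SD, n = 3). The median coefficient of variation over members was 4.86% among wild type libraries and 7.30% among knockout libraries. It was 5.11% and 7.95% for the 5036 genes within the same range of RPKM. The median was 5.52% and 9.58% for large subunit members and 3.94% and 6.42% for small subunit members in wild type and knockout.

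Most of the lower members lie on chromosome 3. The chromosome of each member was taken from a gene table of the assembly GRCg7b, which differs from the build galGal4 named for the counts. All 56 members were found there, on 19 chromosomes, and 7 were on chromosome 3: MRPL2, MRPL14, MRPL18, MRPL19, MRPS5, MRPS10 and MRPS18A. Of these 7, 5 fell and 2 did not pass, and all 7 had a negative log2 fold change. The decrease was shared by the chromosome: 70.3% of its 688 tested genes were called lower and 1.16% higher, so that the count of members there is close to that of the chromosome. The median log2 fold change was -0.41 for the 7 members and -0.45 for the 688 genes. On the other chromosomes together, 5 of 49 members rose and 1 fell, while of the 7622 tested genes placed there 14.1% were called higher and 13.5% lower.

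MRPL2 (ENSGALG00000008597), whose bacterial homologue lies near the site of peptide bond formation, fell the most of the members. It had 126, 143 and 128 CPM in wild type replicates 1, 2 and 3 and 63.5, 82.2 and 94.7 CPM in knockout replicates 1, 2 and 3. The knockout libraries were all below the wild type, and knockout replicate 1 was the lowest. MRPL2 changed by -0.72 ± 0.12 (SE; edgeR adjusted p = 0.00150) on the log2 scale. Relative to the median of chromosome 3 it stood at -0.26 ± 0.12, edgeR adjusted p = 0.138.

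MRPL18 (ENSGALG00000011625), a homologue of a bacterial protein that binds ribosomal RNA in the central protuberance of the large subunit, had 130.2, 131 and 133 CPM in wild type replicates 1, 2 and 3 and 82.6, 93.8 and 94.97 CPM in knockout replicates 1, 2 and 3. The wild type libraries lay close together and well above the knockout. It fell from 131 ± 1.20 to 90.4 ± 6.85 CPM (SD, n = 3 each), a log2 fold change of -0.54 ± 0.074 (SE; edgeR adjusted p = 0.000369). Relative to the chromosome it stood at -0.083 ± 0.074, edgeR adjusted p = 0.438. MRPL14 (ENSGALG00000010285), whose bacterial homologue lies at the interface of the subunits, had 93.1, 87.5 and 94.5 CPM in wild type replicates 1, 2 and 3 and 83.4, 79.5 and 74.99 CPM in knockout replicates 1, 2 and 3. The knockout was below the wild type in every library, but the gap was small. MRPL14 changed by -0.21 ± 0.073 (SE; edgeR adjusted p = 0.0495) on the log2 scale, and the call was lost when any of the wild type libraries was left out, or knockout replicate 2 or 3 (edgeR adjusted p up to 0.183). With all libraries the call was also lost with size factors as in DESeq2, with library totals and with no filter (edgeR adjusted p = 0.0754, 0.0930 and 0.0740), and by DESeq2 itself (adjusted p = 0.104). Relative to the chromosome, MRPL14 stood higher at 0.24 ± 0.073, edgeR adjusted p = 0.0320. MRPL19 did not pass (-0.15 ± 0.11, SE, edgeR adjusted p = 0.325). It had 71.3, 77.8 and 72.1 CPM in wild type replicates 1, 2 and 3 and 79.7, 60.6 and 59.2 CPM in knockout replicates 1, 2 and 3, so that knockout replicate 1 was above every wild type library and the other knockout libraries below them. Without knockout replicate 1 its log2 fold change was -0.30 with an edgeR adjusted p of 0.00348.

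Small subunit members on chromosome 3 showed the same direction. MRPS10 (ENSGALG00000009890), homologous to a bacterial protein of the head of the small subunit, had 54.7, 59.8 and 52.05 CPM in wild type replicates 1, 2 and 3 and 42.05, 43.2 and 37.03 CPM in knockout replicates 1, 2 and 3. MRPS10 fell with a log2 fold change of -0.45 ± 0.091 (SE; edgeR adjusted p = 0.00389), and relative to the chromosome it was 0.0033. MRPS18A (ENSGALG00000010296), which sits in the large subunit of the mammalian mitoribosome, had 97.02, 94.5 and 94.7 CPM in wild type replicates 1, 2 and 3 and 73.4, 69.5 and 72.3 CPM in knockout replicates 1, 2 and 3. Both genotypes varied little, and the groups were far apart. MRPS18A changed by -0.41 ± 0.067 (SE; edgeR adjusted p = 0.00103) on the log2 scale and by 0.041 relative to the chromosome. MRPS5, homologous to a bacterial protein at the channel where messenger RNA enters, had 153, 157 and 154 CPM in wild type replicates 1, 2 and 3 and 147, 132 and 131 CPM in knockout replicates 1, 2 and 3. The knockout was lower in all 3 libraries, without passing the test (-0.18 ± 0.070, SE, edgeR adjusted p = 0.0732). Without knockout replicate 1 it was called lower (log2 fold change -0.23, edgeR adjusted p = 0.00517), and relative to the chromosome it stood higher (0.27 ± 0.070, edgeR adjusted p = 0.0164).

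Taken relative to the chromosome 3 median, 7 members were called higher and 1 lower. The 7 were the 5 named above with MRPL14 and MRPS5, and the lower member was MRPL55. In that fit 11.6% of the genes of chromosome 3 were called higher and 15.6% lower. Over all 9159 tested genes the same fit called 1183 higher and 1231 lower.

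The 5 members that rose lie on chromosomes 2, 4, 13 and 19, and each had all knockout libraries above the wild type. MRPS23 (ENSGALG00000005559), a small subunit protein with no bacterial homologue, rose from 70.1 ± 7.66 to 91.4 ± 0.325 CPM (SD, n = 3 each). It had 69.4, 78.1 and 62.9 CPM in wild type replicates 1, 2 and 3 and 91.7, 91.3 and 91.1 CPM in knockout replicates 1, 2 and 3, with the knockout libraries almost equal. This is a log2 fold change of 0.38 ± 0.084 (SE; edgeR adjusted p = 0.00647). MRPS17 (ENSGALG00000002379), whose bacterial homologue binds the ribosomal RNA of the small subunit, had 44.1, 45.6 and 40.98 CPM in wild type replicates 1, 2 and 3 and 57.6, 57.8 and 53.1 CPM in knockout replicates 1, 2 and 3. The rise was of like size in every knockout library, with a log2 fold change of 0.36 ± 0.081 (SE; edgeR adjusted p = 0.00664). Both genes are on chromosome 19, where 13% of 207 tested genes were called higher and 15.5% lower. Their calls held without each library in turn and in every other alternative tried.

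The 3 large subunit members that rose were less stable. MRPL1 (ENSGALG00000010324), a homologue of the bacterial protein of the mobile stalk beside the exit of transfer RNA, had 48.97, 43.96 and 51.3 CPM in wild type replicates 1, 2 and 3 and 76.5, 62.7 and 54.2 CPM in knockout replicates 1, 2 and 3. Knockout replicate 1 was the highest and knockout replicate 3 barely above the wild type. It rose by 0.42 ± 0.12 (SE; edgeR adjusted p = 0.0220) on the log2 scale. The call of MRPL1 was lost when wild type replicate 1, wild type replicate 2 or knockout replicate 2 was left out (edgeR adjusted p = 0.0761, 0.0950 and 0.0503). MRPL22 (ENSGALG00000003919), whose bacterial homologue lines the tunnel through which the new protein leaves, had 34.1, 41.04 and 39.9 CPM in wild type replicates 1, 2 and 3 and 53.1, 44.9 and 46.4 CPM in knockout replicates 1, 2 and 3. The knockout was higher throughout, again most in replicate 1. MRPL22 rose with a log2 fold change of 0.33 ± 0.10 (SE; edgeR adjusted p = 0.0306), and leaving out wild type replicate 1 or 3 ended the call (edgeR adjusted p = 0.131 and 0.0648). MRPL32 (ENSGALG00000012337), a protein that in yeast and mouse is matured by a protease of the inner mitochondrial membrane, had 49.6, 48.3 and 47.3 CPM in wild type replicates 1, 2 and 3 and 64.1, 56.4 and 56.2 CPM in knockout replicates 1, 2 and 3. Leaving out wild type replicate 1, 2 or 3 ended its call (edgeR adjusted p = 0.0610, 0.0850 and 0.0917), which in all libraries was 0.28 ± 0.082 (SE; edgeR adjusted p = 0.0250). AFG3L2, the gene of a subunit of that protease, rose by 0.22 ± 0.064 (SE; edgeR adjusted p = 0.0237) on the log2 scale.

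A single member outside chromosome 3 fell. MRPL55 (ENSGALG00000027824), a large subunit protein added in mitochondria, lies on chromosome 2, where 12.5% of 698 tested genes were called lower and 21.9% higher. It had 41.9, 42.9 and 44.5 CPM in wild type replicates 1, 2 and 3 and 26.9, 31.5 and 34.98 CPM in knockout replicates 1, 2 and 3. Every knockout library was below the wild type, and the wild type libraries lay close together. It fell from 43.1 ± 1.31 to 31.1 ± 4.05 CPM (SD, n = 3 each), a log2 fold change of -0.46 ± 0.10 (SE; edgeR adjusted p = 0.00675). The call held in all 13 alternatives, with an edgeR adjusted p of at most 0.0328 when a library was left out.

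**Figure D3:**
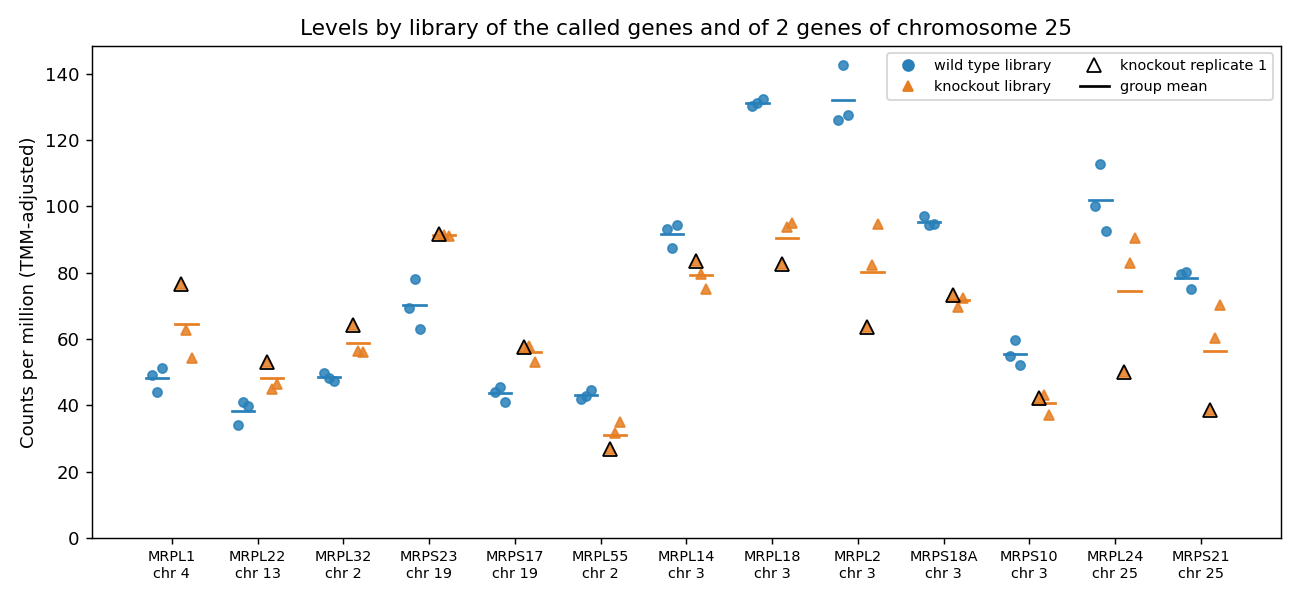
CPM (linear axis from 0) in each library for the 11 called genes and for MRPL24 and MRPS21 of chromosome 25; circles are wild type libraries, triangles knockout libraries, outlined triangles knockout replicate 1, and bars group means. The genotypes do not overlap for any of the 13 genes, which were picked by their calls or after their values were seen. Of all tested genes, 46.2% do not overlap. Knockout replicate 1 is the lowest library of MRPL24 (50.1 CPM) and MRPS21 (38.5 CPM).

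MRPL24 and MRPS21, both on chromosome 25, had decreases of about the size of MRPL55 and MRPS10 but did not pass. MRPL24, whose bacterial homologue lies beside the exit of the peptide tunnel, had 100.0, 113 and 92.5 CPM in wild type replicates 1, 2 and 3 and 50.1, 82.8 and 90.3 CPM in knockout replicates 1, 2 and 3. MRPS21 had 79.7, 80.2 and 75.2 CPM in wild type replicates 1, 2 and 3 and 38.5, 60.4 and 70.1 CPM in knockout replicates 1, 2 and 3. In both genes knockout replicate 1 held about the same place, far below the other knockout libraries. Their log2 fold changes were -0.45 ± 0.17 (SE; edgeR adjusted p = 0.0737) and -0.47 ± 0.17 (SE; edgeR adjusted p = 0.0525). Against the wild type mean they stood at -1.01, -0.29 and -0.17 (MRPL24) and -1.01, -0.37 and -0.16 (MRPS21) in knockout replicates 1, 2 and 3. The 82 tested genes of chromosome 25 had medians of -0.49, -0.12 and -0.039 in the same libraries, and 23.2% of them were called lower and 2.44% higher. Without knockout replicate 1 the decreases were smaller but passed, with -0.23 for MRPL24 (edgeR adjusted p = 0.0277) and -0.26 for MRPS21 (edgeR adjusted p = 0.0120). They also passed without knockout replicate 3, with -0.59 (edgeR adjusted p = 0.0129) and -0.64 (edgeR adjusted p = 0.00482), and DESeq2 called both with all libraries (adjusted p = 0.0234 and 0.0141). DAP3, another mitoribosomal protein gene of chromosome 25, did not share this, with 125, 123 and 129 CPM in knockout replicates 1, 2 and 3.

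Knockout replicate 1 was also at either end of the 6 libraries in other members, at times by little (91.7 against 91.3 CPM in MRPS23). It was the lowest of the 6 libraries in 13 members and the highest in 17, or 23.2% and 30.4%. Of all tested genes it was the lowest in 29.97% and the highest in 27.1%, so this was not particular to the members. MRPL16 had 42.5, 44.5 and 37.7 CPM in wild type replicates 1, 2 and 3 and 25.6, 41.8 and 41.6 CPM in knockout replicates 1, 2 and 3. MRPL41, a protein added in mitochondria, had 34.7, 39.4 and 30.9 CPM in wild type replicates 1, 2 and 3 and 24.7, 39.9 and 41.5 CPM in knockout replicates 1, 2 and 3. In both, knockout replicate 1 was the lowest library and the other knockout libraries lay within the wild type range or just outside it. Without that library 11 further members were called, 6 higher (MRPL17, MRPL21, MRPL37, MRPL44, MRPL48 and MRPL51) and 5 lower (MRPL19, MRPL24, MRPL35, MRPS5 and MRPS21). Their log2 fold changes in that fit ran from 0.19 to 0.31 for the higher genes and from -0.30 to -0.23 for the lower ones.

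**Figure D4:**
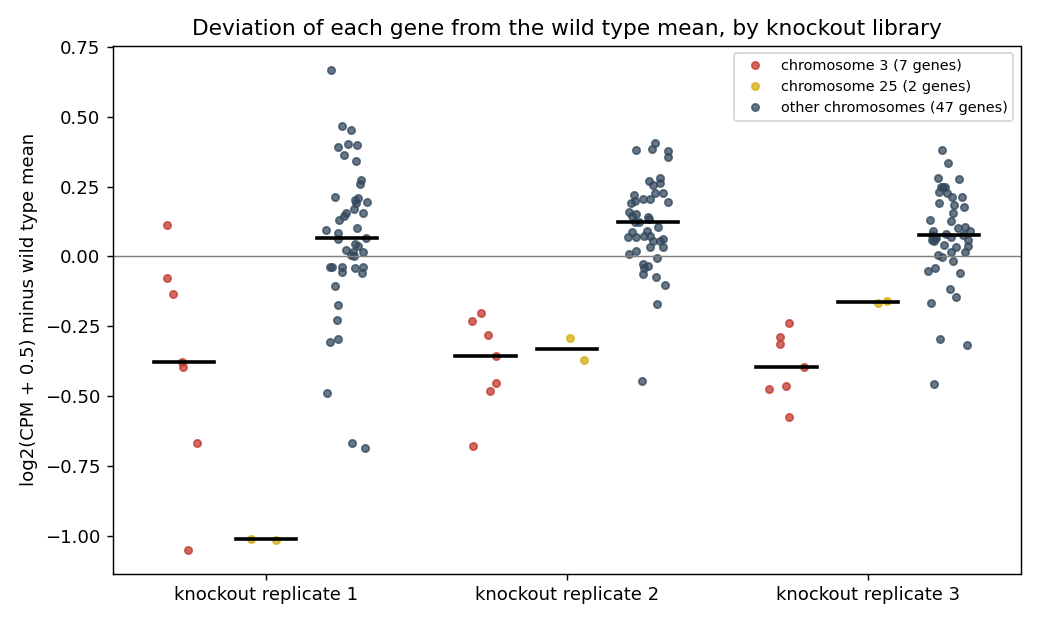
Difference of log2(CPM + 0.5) from the wild type mean for each gene in each knockout library (y axis), for the 7 genes of chromosome 3, the 2 of chromosome 25 and the other 47; black bars are medians. The median of chromosome 3 genes was -0.38, -0.36 and -0.40 in knockout replicates 1, 2 and 3, that of chromosome 25 genes -1.01, -0.33 and -0.16, and that of the others 0.067, 0.12 and 0.077.

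Outside chromosome 3, 24 large subunit members did not pass, 18 with a positive and 6 with a negative log2 fold change. Nearest to the threshold among those with a positive value were MRPL37 (0.24 ± 0.087, SE, edgeR adjusted p = 0.0575) and MRPL23 (0.28 ± 0.10, SE, edgeR adjusted p = 0.0640), a homologue of a bacterial protein at the tunnel exit. MRPL23 passed in 6 and MRPL37 in 3 of the 13 alternatives. By DESeq2 with all libraries MRPL23 passed (adjusted p = 0.0430) and MRPL37 did not (adjusted p = 0.0536). MRPL39, MRPL17, MRPL21, MRPL44, MRPL48, MRPL51, MRPL50 and MRPL3 had log2 fold changes between 0.13 (MRPL3) and 0.24 (MRPL39). MRPL3 and MRPL44 are the most counted of these, at 206 ± 10.3 and 251 ± 12.3 CPM in wild type and 225 ± 10.9 and 282 ± 25.1 CPM in knockout libraries (SD, n = 3 each). Another 10 large subunit members lay within 0.1 of 0. These were MRPL10, which anchors the stalk that recruits translation factors, MRPL15, MRPL46, MRPL38, MRPL20, MRPL47, MRPL41, MRPL53, MRPL28 and MRPL54. The closest to 0 was MRPL28 (-0.0063 ± 0.063), with 161, 164 and 161 CPM in wild type replicates 1, 2 and 3 and 158, 164 and 162 CPM in knockout replicates 1, 2 and 3. MRPL13 (-0.16), MRPL16 (-0.19) and MRPL35 (-0.20) were lower without passing, and MRPL35 had no overlap between the genotypes.

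Among small subunit members outside chromosome 3, 19 did not pass, 14 with a positive and 5 with a negative value. MRPS35 (0.22), MRPS36 (0.18), MRPS25 (0.15), MRPS27 (0.15), MRPS31 (0.13), MRPS9 (0.13), MRPS33 (0.11) and MRPS11 (0.10) had positive log2 fold changes over 0.1. Of these, MRPS35 and MRPS25 had every knockout library above the wild type in CPM. The 9 members within 0.1 of 0 were MRPS7, MRPS34, MRPS14, MRPS16, MRPS22, MRPS30, MRPS26, MRPS2 and MRPS6. MRPS2 spread widely in the knockout, with 123, 126 and 132 CPM in wild type replicates 1, 2 and 3 and 103, 121 and 138 CPM in knockout replicates 1, 2 and 3. MRPS18C, another member of the family of MRPS18A but on chromosome 4, was at -0.14 and did not pass (edgeR adjusted p = 0.300).

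Members with and without a bacterial homologue were also set side by side, a division made after the values were seen. Of 33 members with a homologue in the bacterial ribosome, 4 rose, 5 fell and 24 did not pass, with a median of 0.022. All 7 members of chromosome 3 are among them and hold the 5 that fell. The other 26 had a median of 0.069, with 4 higher and the rest not passing. Of the 23 members with no such homologue, 1 rose, 1 fell and 21 did not pass, with a median of 0.13. No member of this second group lies on chromosome 3. Of all tested genes, 12.7% were called higher and 18.0% lower. On chromosome 3 70.3% were lower, and of the tested genes placed on other chromosomes 14.1% were higher and 13.5% lower.

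Genes next to a member on the chromosome were looked up in the GRCg7b table. The only members next to each other were MRPS11 and MRPL46 on chromosome 10, whose log2 fold changes were 0.10 ± 0.074 and 0.078 ± 0.11. All 5 tested neighbours of the members on chromosome 3 were called lower, among them TCP1, a subunit of the cytosolic chaperonin, next to MRPL18 (-0.72) and KLC2, a kinesin light chain whose annotated span overlaps that of MRPL2 (-0.88). Of the 10 tested neighbours of the 6 called members on other chromosomes, 3 were called, a share near the 30.7% of all tested genes. Next to MRPL32 (0.28) these were PSMA2, a proteasome subunit, at 0.23 (edgeR adjusted p = 0.0345) and HECW1, a ubiquitin ligase, at 1.05 (edgeR adjusted p = 0.00227). Next to MRPL1 (0.42) it was FRAS1, an extracellular matrix protein, which was lower at -0.61 (edgeR adjusted p = 0.00333). The neighbours of MRPL55, GUK1 and C1orf35, did not pass (-0.054 and -0.11). In that assembly 15 members overlap an adjacent protein-coding gene, among them the called members MRPL2 and MRPL1, and the sources used here do not say whether the counting used strand, so reads of such pairs may not be told apart.

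Of 7 mitoribosomal protein genes under other names, edgeR called 0, with 2 higher at an unadjusted p under 0.05, and DESeq2 called 0. ICT1, a release factor built into the large subunit, was at 0.25 ± 0.096 (SE; edgeR adjusted p = 0.0726). AURKAIP1 (0.16 ± 0.077), CHCHD1 (0.13 ± 0.12), DAP3 (0.096 ± 0.086) and PTCD3 (0.043 ± 0.076), all proteins of the small subunit, did not pass. The entries described in the table as the proteins L42 and L30 were at 0.22 and 0.092, also without passing. All 7 had a positive log2 fold change, and none lies on chromosome 3. Of genes off chromosome 3, 37 of 49 members and 4146 of 7622 tested genes placed there were positive too.

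Genes that serve the mitoribosome were counted by function, and no list was tested as a set. Beside these counts, 12.7% of all tested genes were called higher and 18.0% lower, and on chromosome 3 70.3% were lower. Of 22 tested genes of mitoribosome assembly and ribosomal RNA modification, 4 rose, 3 fell and 15 did not pass. RBFA, a factor that binds the small subunit during assembly, rose by 0.39 ± 0.12, and GTPBP10, a GTPase of large subunit assembly, rose by 0.25 ± 0.071. TFB1M, which methylates the small subunit ribosomal RNA, fell by 0.39 ± 0.090 on the log2 scale and lies on chromosome 3, as does RMND1 (-0.26). DHX30, an RNA helicase, fell by 0.29 ± 0.078 and lies on chromosome 2. Among 12 mitochondrial translation factors 1 was called higher and 3 lower. The lower ones, MTRF1L (-0.48), a release factor, QRSL1 (-0.43), an amidotransferase subunit that completes a charged transfer RNA, and LRPPRC (-0.39), which stabilises mitochondrial messenger RNA, are all on chromosome 3. MRRF, the ribosome recycling factor on chromosome 17, rose by 0.30 ± 0.091.

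In mitochondrial transcription and DNA maintenance 11 genes were tested, of which 1 was called higher and 3 lower. TFB2M (-0.40), a transcription factor, PNPT1 (-0.40), an RNA-degrading enzyme, and MGME1 (-0.40), a nuclease, fell and lie on chromosome 3, while TOP1MT (0.47), a topoisomerase, rose. Of 21 genes of mitochondrial protein import, 5 rose, 1 fell and 15 did not pass, with a median of 0.16. These shares were 23.8% higher and 4.76% lower, against 12.7% and 18.0% of all tested genes. GRPEL2, a cofactor of the import motor, rose by 0.57 ± 0.074 and TIMM44 by 0.36 ± 0.086. TOMM20, a receptor of the outer membrane, fell by 0.37 ± 0.072 and lies on chromosome 3. Of 8 tested regulators of mitochondrial biogenesis, 3 rose (MYC, YY1 and GABPB1), 1 fell (PPARGC1B) and 4 did not pass. MYC rose by 0.39 ± 0.081 and GABPB1, a subunit of the factor GABP, by 0.25 ± 0.077. GABPA, the alpha subunit of GABP, did not pass (0.063 ± 0.086, SE, edgeR adjusted p = 0.617). NRF1, a transcription factor known in mammals for its binding at promoters of mitochondrial genes, stood at 52.7 ± 0.971 CPM in wild type and 52.7 ± 3.29 CPM in knockout libraries (SD, n = 3 each).

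The ribosomal proteins of the cytosol are expressed at far higher levels, with a median of 1446 RPKM against 68.9 RPKM for the mitoribosome over all libraries. Their 67 tested genes gave 10 calls higher and 3 lower, with a median log2 fold change of 0.072 against 0.067. The calls are 14.9% higher and 4.48% lower, against 12.7% and 18.0% of all tested genes. All 3 that fell, RPS12 (-0.59 ± 0.071), RPS27A (-0.45 ± 0.090) and RPS7 (-0.44 ± 0.066), lie on chromosome 3, and these were the only tested genes of the list there. RPL22L1, a paralogue of a large subunit protein, rose by 0.55 ± 0.090. Copies of cytosolic ribosomal protein genes may share reads. Without the genes of chromosome 3 the median was 0.075 for the cytosolic and 0.078 for the mitochondrial ribosome. For the 7622 tested genes placed on other chromosomes it was 0.028.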

How the data were processed

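The authors deposited 2 tables of 17108 genes by 6 libraries, with symbols. One holds raw counts, since the deposited values are whole numbers with different totals. The deposited values of the other were read as RPKM, because over the 9724 genes with counts in all libraries the value is the count times a gene constant and a library constant. The build galGal4 and the tools Subread 1.5.0, TopHat2 2.1.0, limma, edgeR and bcl2fastq 1.8.4 are named per the submitters' processing notes. The role of each step, the annotation and the strand setting are not given in the sources used here.

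Genes were kept by filterByExpr (9159, all 56 members among them), scaled by TMM and tested for genotype with glmQLFit and glmQLFTest of edgeR 4.0.16 in R 4.3.3 on the 6 libraries (two-sided, no covariates). P-values were adjusted by Benjamini-Hochberg over all tested genes, with a threshold of 0.05. The SE was derived from the F statistic. Fits relative to chromosome 3 used its median log2 fold change (-0.45) as an offset in the knockout libraries, for the genes of chromosome 3 only. Genes of other chromosomes were not shifted in these fits. Alternatives were size factors as in DESeq2, library totals, DESeq2 1.42.0, other filters, each library left out, a replicate block and another assignment to subunits. Replicates differed beyond sampling noise (chi-square over its degrees of freedom 3.10 to 27.7). On simulated counts for the 9159 genes of knockout against wild type, the fit called 83.6% of 67 genes changed 1.5-fold and 9 of 8959 unchanged genes. The simulation gave every gene the same dispersion (spread between replicates beyond sampling noise) and had no library that stood apart, unlike knockout replicate 1. Its rates therefore need not hold for the real counts.

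Members, lists and alternatives were chosen with earlier results of these data known. Any member may be named. Values per library are given for up to 5 members of each subunit and direction with the largest called changes. They are also given for the 3 highest of each subunit by RPKM and for members of chromosome 3. Some others with such values were chosen after their values were seen (MRPL24, MRPL16, MRPL41, MRPL28 and MRPS2). The 2 lowest of each subunit by RPKM are given as means. Of related lists, up to 3 called genes with the largest changes are named, with others chosen after their values were seen. P-values set the difference between genotypes against the spread between cultures. With the number of clones not stated, they cannot be taken to cover a spread between clones.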

Additional observations from a re-analysis of the deposited data

How the results depend on the processing

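Of the 11 called members, 3 (MRPL55, MRPS17 and MRPS23) kept their call in all 13 alternatives, and 7 kept it without each library in turn. With only the genes of chromosome 3 set relative to its median, 1 member was lower by edgeR, 1 of the large and 0 of the small subunit. In that fit 1 small subunit member was lower at an unadjusted p under 0.05, and DESeq2 without that offset called 3. With library totals, 5 large subunit members were higher, and the median of members was 0.10, of the large subunit 0.11 and of all tested genes 0.034. By place in the structure, 1 small subunit member was lower. With 1 library left out, genes higher ran from 639 to 1483 and lower from 1177 to 1953. Members higher ran from 2 to 11 and lower from 5 to 11, large subunit members from 0 to 9 and from 3 to 7, and small subunit members from 2 to 3 and from 2 to 4. The medians ran from 0.047 to 0.086 (members), 0.053 to 0.10 (large) and 0.029 to 0.076 (small).

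With the replicate block 5 members were higher and 7 lower, with 1009 genes higher and 1567 lower. Equal numbers are not tied to a shared day by the labels, and deviations of same-numbered libraries correlated at -0.040 to 0.096, so the numbers were not taken to pair the libraries; 2 of 6 libraries correlated best with their own number. Under the block MRPL22 lost its call (0.0604), as did MRPL14 (0.0827), and MRPL23, MRPL24 and MRPS21 gained one.

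Relative to chromosome 3, members there changed sign: MRPL14 (0.24), MRPL19 (0.30), MRPS5 (0.27), MRPS10 (0.0033) and MRPS18A (0.041). All other changes of sign were of members that did not pass, near 0. Without wild type replicate 1 they were MRPL47 (-0.025), MRPL53 (-0.025), MRPS16 (-0.027), MRPS30 (-0.029) and MRPS26 (0.030); without wild type replicate 2, MRPL28 (0.0036); without wild type replicate 3, MRPL41 (-0.053) and MRPS14 (-0.0085). Without knockout replicate 1 they were MRPL47 (-0.036), MRPL53 (-0.070), MRPL28 (0.010), MRPL54 (0.051), MRPS26 (0.015) and MRPS2 (0.039). Without knockout replicate 2 they were MRPL41 (-0.072), MRPS16 (-0.035), MRPS22 (-0.0067), MRPS30 (-0.046) and MRPS26 (0.011), and without knockout replicate 3 MRPL41 (-0.094) and MRPL28 (0.0092). MRPL28 and MRPS26 were at 0.0079 and 0.010 with DESeq2 size factors, 0.029 and 0.031 with library totals, and 0.0080 and 0.010 with DESeq2. MRPL41 was at -0.017 with the replicate block, MRPS30 at -0.0021 with a mean of at least 1 RPKM and MRPS26 at 0.0018 without a filter. Over the fits without 1 library the highest value was 0.14 for MRPL47, 0.21 for MRPL41, 0.12 for MRPL53, 0.12 for MRPS14, 0.085 for MRPS16, 0.064 for MRPS22 and 0.057 for MRPS30, and the lowest was -0.11 for MRPL54, -0.019 for MRPS26 and -0.16 for MRPS2. The cause was not tested, and genes outside the mitoribosome were not followed through the alternatives one by one.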
